A study of Mus musculus with 6 samples.

Results

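Corneal epithelium and stroma genes were measured in retinal RNA of mice whose eyes had received NMDA, as a readout of how much cornea each sample held. The 10 genes were chosen by name as markers of the corneal epithelium (Krt5, Krt12, Krt14, Krt15 and Aldh3a1) and of the corneal stroma (Lum, Dcn, Kera, Ogn and Mgp), and 8 of them had a value in all 6 libraries, out of 25168 genes tested. All libraries came from retinas of wild type mice, of strain C57BL/6 in the labels and C57BL/6J in the study's methods. Every eye had been injected into the vitreous with NMDA (100 mM, 2 μl), which overstimulates glutamate receptors and harms the ganglion cells of the retina. The injection that followed 2 days later held PBS for the NMDA + PBS group (n = 3 libraries) and 50 ng/μl of SCF (stem cell factor, which binds the receptor c-kit) for the NMDA + SCF group (n = 3 libraries). Retinas were collected 1 week after the last injection. Age was given as 4 weeks at the start in the study's methods and as 5 weeks in the sample labels. The number of mice behind a library is not given, so the p-values below measure the spread between libraries, which may be technical.

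The corneal epithelium is a stratified epithelium on the eye's surface. Its cells hold keratin filaments built from pairs of 1 type I and 1 type II keratin: Krt5 (type II) pairs with Krt14 (type I) in basal cells, Krt15 (type I) marks basal cells of the limbus and of other surface epithelia, and Krt12 (type I) marks the differentiated corneal epithelium. The stroma below it is collagen spaced by small leucine-rich proteoglycans, among them lumican (Lum), decorin (Dcn), keratocan (Kera) and mimecan (Ogn), and is made by keratocytes. Mgp encodes matrix Gla protein, an inhibitor of calcification. Krt12, Kera and Aldh3a1 are the defining cornea genes of the list, whereas Krt5, Krt14 and Krt15 are also made by the conjunctiva, lid and skin, and Lum, Dcn, Ogn and Mgp also by sclera, choroid and vessel walls.

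Libraries held between 3404335 and 4440579 counted fragments, between 14.1 and 18.2% of the read pairs that passed quality filtering. The authors' files use 2 transcript lists: list A for NMDA + PBS replicate 1 and the 3 NMDA + SCF libraries, list B for NMDA + PBS replicates 2 and 3. A value is the FPKM (fragments scaled to transcript length and to the library total) summed over the transcripts of a gene that both lists hold, and values of a group are listed in the order of its replicates 1, 2 and 3. NMDA + PBS replicate 1 is therefore the control library that shares its list with the NMDA + SCF libraries, and its values are given beside each result. The libraries were retinal by their rod markers, since the summed FPKM of 10 rod genes was 4675, 4159 and 5411 in the NMDA + PBS libraries and 5131, 4663 and 4322 in the NMDA + SCF libraries. Aldh3a1, the abundant corneal aldehyde dehydrogenase, had no row in any file. Kera was listed in list B alone, where both libraries had 0 fragments, which allows a share of up to 7.54e-05% of the fragments in NMDA + PBS replicate 2 and up to 6.76e-05% in NMDA + PBS replicate 3. Of the 3 defining cornea genes, only Krt12 could thus be compared between the groups.

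Keratins are close relatives, and the sequences below are shown because stretches of a keratin that another gene repeats limit how far a fragment can be assigned to it. Of all windows of 50 bases in the Krt14 transcript, 14.4% were also found in Krt16 or Krt17, and in the Krt5 transcript 12.2% were found in other genes, among them Krt6a and Krt6b. The longest run shared by Krt14 and Krt16 was 134 bases of coding sequence. It is printed 5′ to 3′ from the GENCODE M21 transcripts, with up to 40 coding bases on either side, and capitals mark the bases that differ between the genes. The Krt14 stretch lies in 1 exon (GRCm38 chr11:100206977-100207190, minus strand), as does that of Krt16 (chr11:100248436-100248649, minus strand).
Krt14: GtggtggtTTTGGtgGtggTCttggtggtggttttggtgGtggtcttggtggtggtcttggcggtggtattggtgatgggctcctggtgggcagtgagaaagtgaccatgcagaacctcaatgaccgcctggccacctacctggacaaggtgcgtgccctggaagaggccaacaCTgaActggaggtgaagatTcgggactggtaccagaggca
Krt16: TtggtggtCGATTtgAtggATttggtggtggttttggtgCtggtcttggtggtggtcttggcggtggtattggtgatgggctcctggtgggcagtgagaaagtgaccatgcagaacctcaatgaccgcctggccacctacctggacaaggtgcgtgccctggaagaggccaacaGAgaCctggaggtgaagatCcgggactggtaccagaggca
Over the 214 bases Krt14 and Krt16 differed at 14 positions. For Krt15 the share of windows found elsewhere was 0.666%, and for Lum, Dcn, Ogn and Mgp it was 0%. For Krt12 it was 42.0%, because the gene A830036E02Rik is transcribed from the opposite strand of the same DNA. Strand-specific counting is not stated for these files, and fragments from Krt12 and from that antisense gene could not be told apart there. How the authors' counting assigned such fragments is not given in the sources used here.

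The keratins lay lower in the NMDA + SCF libraries, without passing the test over all genes, and the stroma genes lay on both sides. At a Benjamini-Hochberg adjusted p of 0.05 over all genes (limma on log2(FPKM + 1)), 0 of the 8 measured genes passed, as did 0% of all genes. At the study's thresholds, 2-fold or more with an adjusted p up to 0.001, the count was 0 as well, against 0% of all genes. With unadjusted p-values up to 0.05, 3 of the 8 had lower levels in NMDA + SCF (Krt5, Krt14 and Krt15), where 4.91% of all genes were, and 1 was higher (Ogn), where 4.33% of all genes were. The groups did not overlap, with NMDA + SCF below, for 2 of the 8 (Krt5 and Krt14) and for 6.45% of all genes. None of the 8 lay above without overlap, against 7.62% of all genes. The median log2 fold change, NMDA + SCF minus NMDA + PBS, was -1.60 over the 4 keratins, -0.28 over the 4 stroma genes and -0.01 over all genes tested. The stroma median turned direction to 0.36 without NMDA + PBS replicate 2 and to 0.015 when the fit held the transcript list, and was -0.74 without NMDA + PBS replicate 3. With a filter of 1 FPKM in 3 libraries it was 0.035, because the filter dropped Dcn. The log2 fold changes of Lum, Ogn and Mgp were the same with that filter. Bulk RNA cannot tell fewer cells of a type from less RNA per cell.

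**Figure D1:**
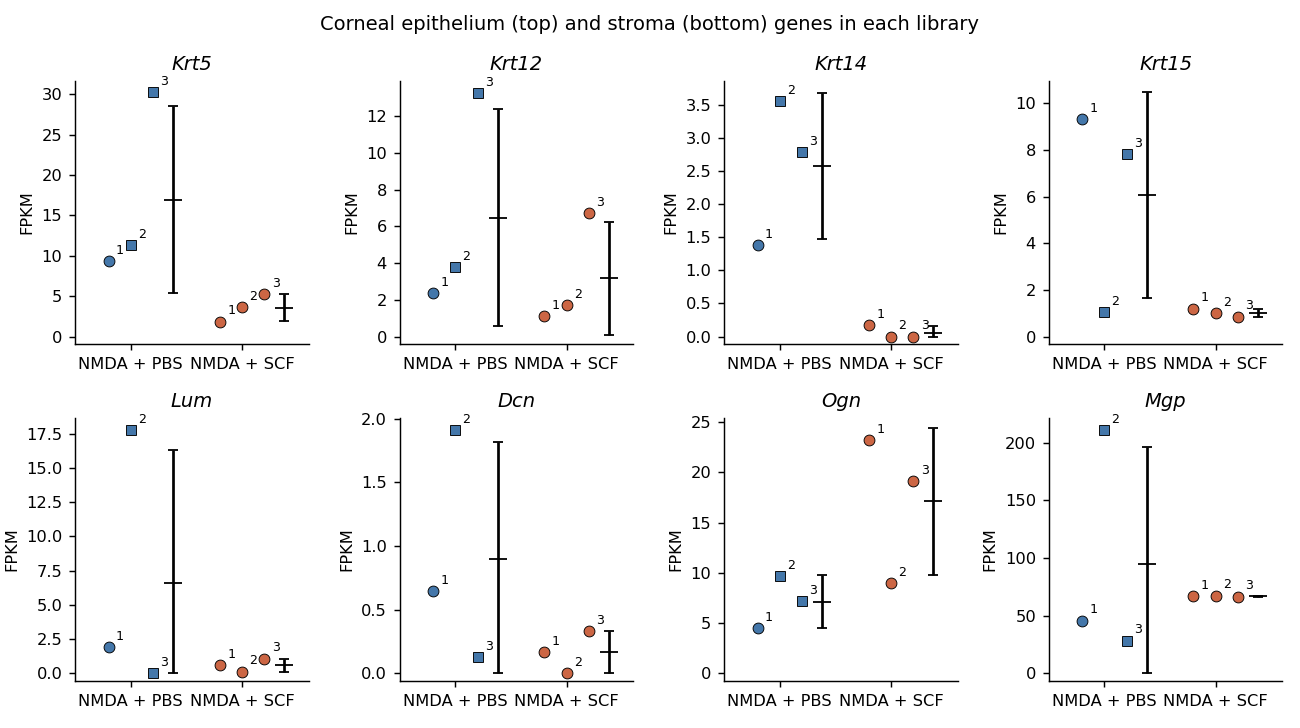
FPKM (y axis, linear, a separate scale for each gene) of the 4 measured epithelial genes (top) and the 4 measured stroma genes (bottom) in the NMDA + PBS (blue) and NMDA + SCF (orange) libraries, with the replicate number beside each point. Circles are libraries of transcript list A and squares of list B, and black bars give the mean ± SD (n = 3), stopped at 0 where the SD is larger than the mean; Krt5 and Krt14 show no overlap between the groups, and NMDA + PBS replicate 2 is the highest library for Lum, Dcn and Mgp.

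Krt5, the type II keratin of basal epithelial cells (ENSMUST00000023709, 9 exons, chr15:101707070-101712898, minus strand), had the highest mean FPKM of the 4 corneal epithelium keratins. Its FPKM was 9.36, 11.3 and 30.2 in the NMDA + PBS libraries, from 70, 99 and 295 fragments. In the NMDA + SCF libraries it was 1.86, 3.66 and 5.26, from 14, 28 and 40 fragments. Every NMDA + SCF library lay below every NMDA + PBS library, and replicate 3 was the highest of each group. The means were 17.0 ± 11.5 and 3.60 ± 1.70 FPKM (SD, n = 3), and the log2 fold change was -1.86 (SE 0.48, limma p = 0.00572, Benjamini-Hochberg adjusted p = 0.535, exact two-sided permutation p = 0.1). An exact p of 0.1 is the smallest that 3 against 3 allows. Over the pooled fragments of a group the ratio was 0.202, with a 95% counting interval of 0.157 to 0.255 that leaves out the spread between libraries.

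Krt14, the type I partner of Krt5 (ENSMUST00000007272, 8 exons, chr11:100203162-100207548, minus strand), was nearly without fragments in the NMDA + SCF libraries. Its FPKM was 1.38, 3.55 and 2.79 in the NMDA + PBS libraries, from 8, 24 and 21 fragments. In NMDA + SCF replicate 1 it was 0.172, from 1 fragment, and replicates 2 and 3 had 0 fragments, which allows a share of up to 8.62e-05% and 8.67e-05% of their fragments. The groups did not overlap. The means were 2.57 ± 1.10 and 0.0573 ± 0.0992 FPKM (SD, n = 3), with a log2 fold change of -1.71 on the log2(FPKM + 1) scale (SE 0.33, limma p = 0.00109, adjusted p = 0.535, exact permutation p = 0.1). With 1 fragment against 53, the ratio over the pooled fragments was 0.0215 (95% counting interval 0.000535 to 0.125). Without NMDA + PBS replicate 1, the library with the lowest value of its group, the log2 fold change was -1.98 and the limma adjusted p was 0.0154. That fit sets list B control libraries against list A libraries, and 909 genes passed an adjusted p of 0.05 in it. Without any of the other libraries the limma adjusted p of Krt14 was between 0.479 and 0.788. Krt16, which shares the stretch shown above, had FPKM of 0, 5.14 and 4.89 in the NMDA + PBS libraries and 0 in all 3 NMDA + SCF libraries, so it was above 0 in the list B libraries alone. Krt17, which also repeats windows of Krt14, had 1, 8 and 3 fragments in the NMDA + PBS libraries and 0, 0 and 1 in the NMDA + SCF libraries.

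Krt15, the type I keratin of limbal and other basal cells (ENSMUST00000107411, 8 exons, chr11:100131758-100135928, minus strand), had FPKM of 9.33, 1.04 and 7.82 in the NMDA + PBS libraries, from 54, 7 and 59 fragments. In the NMDA + SCF libraries it was 1.20, 1.01 and 0.850, from 7, 6 and 5 fragments. NMDA + PBS replicates 1 and 3 stood apart, and replicate 2 lay among the NMDA + SCF libraries, so the groups overlapped. The means were 6.06 ± 4.42 and 1.02 ± 0.176 FPKM (SD, n = 3), with a log2 fold change of -1.50 (SE 0.62, limma p = 0.0441, adjusted p = 0.535, exact permutation p = 0.2). The unadjusted limma p was 0.000348 without NMDA + PBS replicate 2 and between 0.0855 and 0.143 without any of the other libraries.

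Krt12, the keratin of the differentiated corneal epithelium (ENSMUST00000017741, 8 exons, chr11:99415666-99422259, minus strand), was detected in every library. Its FPKM was 2.38, 3.80 and 13.3 in the NMDA + PBS libraries, from 15, 28 and 109 fragments. In the NMDA + SCF libraries it was 1.10, 1.71 and 6.71, from 7, 11 and 43 fragments. Replicate 3 was the highest of each group, NMDA + SCF replicate 3 lay above NMDA + PBS replicates 1 and 2, and the groups overlapped. The log2 fold change was -0.80 (SE 0.67, limma p = 0.272, adjusted p = 0.688, exact permutation p = 0.4), which is within the spread between libraries. A830036E02Rik, the antisense gene, had FPKM of 0.915, 2.79 and 1.16 in the NMDA + PBS libraries and 0.784, 0.836 and 1.49 in the NMDA + SCF libraries. It was highest in replicate 2 of NMDA + PBS and, as Krt12 was, in replicate 3 of NMDA + SCF. The part of antisense fragments in the Krt12 values was not tested.

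Summed over the 4 keratins, FPKM was 22.5, 19.7 and 54.1 in the NMDA + PBS libraries and 4.34, 6.38 and 12.8 in the NMDA + SCF libraries. The group means of these sums were 32.1 ± 19.1 and 7.85 ± 4.43 FPKM (SD, n = 3), and the sums did not overlap. The keratins made up a small part of the counted fragments in every library. The highest share was 0.0109% (95% Wilson interval 0.00997 to 0.0119%), in NMDA + PBS replicate 3, and the lowest was 0.000846% (0.000589 to 0.00122%), in NMDA + SCF replicate 1. The nearest libraries of opposite groups were NMDA + PBS replicate 2, with 0.00397% (0.00340 to 0.00464%), and NMDA + SCF replicate 3, with 0.00254% (0.00207 to 0.00313%). These intervals cover counting error only.

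The keratins did not keep a fixed proportion. Per length, Krt5 was 3.93, 2.98 and 2.28 times Krt12 in the NMDA + PBS libraries, and 1.69, 2.15 and 0.784 times Krt12 in the NMDA + SCF libraries. Krt12 was thus 52.3% of the keratin FPKM in NMDA + SCF replicate 3 and 10.6 to 26.7% of it in the other libraries. Krt15 was 41.6% of it in NMDA + PBS replicate 1, and 5.25% in NMDA + PBS replicate 2. By mean FPKM in the NMDA + PBS group the order was Krt5 (17.0), Krt12 (6.48), Krt15 (6.06) and Krt14 (2.57). Krt12 and Krt15, the neighbours in the middle of that order, differed by less than their SDs of 5.91 and 4.42.

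**Figure D2:**
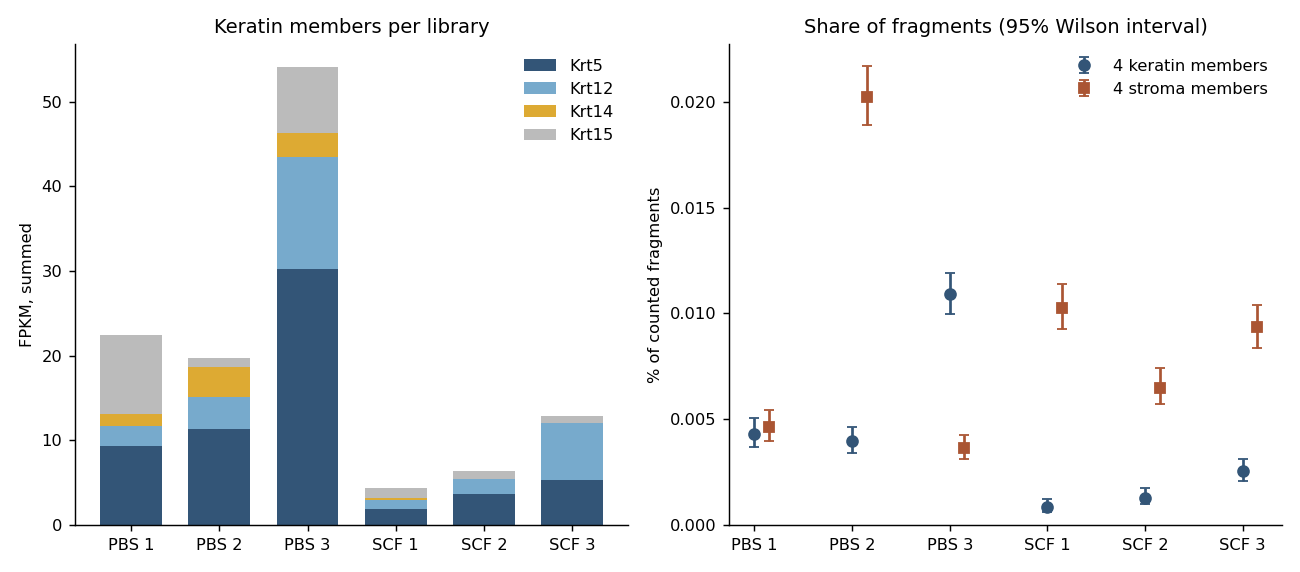
Left, FPKM of the 4 keratins stacked in each library (PBS, NMDA + PBS; SCF, NMDA + SCF); right, the share of all counted fragments (%) taken by the 4 keratins (circles) and the 4 measured stroma genes (squares), with 95% Wilson intervals for counting error. The keratin sums of the NMDA + SCF libraries (4.34, 6.38 and 12.8 FPKM) lie below those of the NMDA + PBS libraries, while the stroma share is highest in NMDA + PBS replicate 2.

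Among the 10 other epithelial keratins with values, 2 had an unadjusted p up to 0.05 and lower levels in NMDA + SCF (Krt13 and Krt16) and 1 was higher (Krt18). Krt13, a keratin of stratified mucosal epithelia including the conjunctiva, had FPKM of 5.86, 3.50 and 5.58 in the NMDA + PBS libraries and 0.882, 1.74 and 2.62 in the NMDA + SCF libraries, with no overlap (log2 fold change -1.15, SE 0.36, limma p = 0.0137, adjusted p = 0.535, exact permutation p = 0.1). Krt6b, which repeats windows of Krt5, had FPKM of 6.05, 5.85 and 7.36 in the NMDA + PBS libraries and 0.784, 2.83 and 6.08 in the NMDA + SCF libraries, where replicate 3 reached the control values. Krt18, a keratin of simple epithelia, had FPKM of 228.7, 235.3 and 126.5 in the NMDA + PBS libraries and 294.1, 322.0 and 349.9 in the NMDA + SCF libraries, with no overlap (log2 fold change 0.76, SE 0.27, limma p = 0.0259, adjusted p = 0.535, exact permutation p = 0.1). Its partner Krt8 had FPKM of 2.65 to 9.12 and 8.79 to 16.7 in the groups, which overlapped.

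Of 39 other genes of the corneal epithelium, 30 had values, and 0 were higher at an unadjusted p of 0.05. Their median log2 fold change was -0.03, near that of all genes. Among the lower genes, Anxa8, an annexin, had 3, 8 and 5 fragments in the NMDA + PBS libraries and 0, 1 and 0 in the NMDA + SCF libraries. Among the genes of this list with the highest mean FPKM, Perp, a desmosome gene, ranged from 12.2 to 15.1 in NMDA + PBS and from 13.3 to 23.8 in NMDA + SCF. Psca, a surface protein of several epithelia, ranged from 4.09 to 7.86 and from 1.36 to 17.8, and Calml3, a calmodulin-like protein of epithelia, from 5.07 to 6.41 and from 1.44 to 6.51. In all 3 genes NMDA + SCF replicate 3 was the highest library. Over the 30 genes of the list it was the highest for 7, and NMDA + PBS replicate 2 was the highest for 7 as well. The basal cell factor Trp63 was not listed in all 6 libraries.

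Lum and Dcn were high in 1 control library. Lum (ENSMUST00000038160, 3 exons, chr10:97565128-97572703, plus strand) had FPKM of 1.92, 17.8 and 0 in the NMDA + PBS libraries, from 16, 173 and 0 fragments. In the NMDA + SCF libraries it was 0.596, 0.117 and 1.06, from 5, 1 and 9 fragments. NMDA + PBS replicate 2 was far above the others, while replicate 3 of the same group was the lowest library of all. The log2 fold change was -1.30 (SE 0.98, limma p = 0.223, adjusted p = 0.688, exact permutation p = 0.5), and without NMDA + PBS replicate 2 it was -0.15.

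Dcn (main transcript ENSMUST00000105287, 8 exons, chr10:97479609-97518143, plus strand) had FPKM of 0.647, 1.91 and 0.128 in the NMDA + PBS libraries, and 0.166, 0 and 0.329 in the NMDA + SCF libraries. These values came from 7, 14 and 1 and from 1, 0 and 2 fragments. Of the 7 fragments in NMDA + PBS replicate 1, 5 were of a transcript with a retained intron. Replicate 2 was again the highest library, and the groups overlapped (log2 fold change -0.60, SE 0.35, limma p = 0.127, adjusted p = 0.590, exact permutation p = 0.3).

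Mgp (main transcript ENSMUST00000032342, 4 exons, chr6:136872435-136875823, minus strand) was the stroma gene with the highest FPKM. It was 45.7, 211 and 28.4 in the NMDA + PBS libraries and 66.8, 67.3 and 66.5 in the NMDA + SCF libraries. The NMDA + SCF libraries lay close together, between the lower 2 control libraries and the highest one. The means were 95.1 ± 101 and 66.9 ± 0.367 FPKM (SD, n = 3), and the log2 fold change was 0.03 (SE 0.65, limma p = 0.959, adjusted p = 0.988, exact permutation p = 1). Its direction depended on which control library was left out: without NMDA + PBS replicate 2 the log2 fold change was 0.87 with an unadjusted p of 0.0112 (limma), and it turned to -0.22 without NMDA + PBS replicate 1 and to -0.55 without replicate 3. It also turned to -0.089 under upper quartile scaling and -0.041 under median-of-ratios scaling.

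Ogn, encoding mimecan (ENSMUST00000021822, 7 exons, chr13:49608046-49624501, plus strand), lay the other way from the keratins. Its FPKM was 4.46, 9.70 and 7.20 in the NMDA + PBS libraries, from 39, 99 and 82 fragments. In the NMDA + SCF libraries it was 23.2, 8.96 and 19.2, from 204, 80 and 170 fragments. NMDA + SCF replicates 1 and 3 stood above all control libraries, and replicate 2 lay among them. The means were 7.12 ± 2.62 and 17.1 ± 7.34 FPKM (SD, n = 3), with a log2 fold change of 1.11 (SE 0.40, limma p = 0.0257, adjusted p = 0.535, exact permutation p = 0.2).

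NMDA + PBS replicate 2 was the highest of the 6 libraries for 3 of the 4 stroma genes (Lum, Dcn and Mgp) and for 1 of the 4 keratins (Krt14), where 18.8% of all genes had their highest value in that library. NMDA + PBS replicate 3 was the highest for 2 of the 8 genes, Krt5 and Krt12, against 23.2% of all genes. The library with the highest sum of the 4 stroma genes was therefore not the one with the highest keratin sum. Kera, a defining cornea gene of the list, had 0 fragments in NMDA + PBS replicate 2. Which tissue gave the stroma values of that library was not tested. The summed FPKM of the 4 stroma genes was 52.7, 240.6 and 35.7 in the NMDA + PBS libraries and 90.8, 76.4 and 87.1 in the NMDA + SCF libraries. Without Mgp, the sums were 7.03, 29.4 and 7.32 against 24.0, 9.08 and 20.5, so the groups overlapped either way.

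The stromal collagens had the same highest library as Lum, Dcn and Mgp, and other matrix genes were divided. Of the 7 stromal collagens with values, all 7 were highest in NMDA + PBS replicate 2, none passed an unadjusted p of 0.05, and the median log2 fold change was 0.02. Col1a1, the main chain of fibrillar collagen type I, had FPKM of 0.0495, 37.7 and 0.380 in the NMDA + PBS libraries and 0.0492, 0.194 and 0.0975 in the NMDA + SCF libraries. Col3a1, a fibrillar collagen of connective tissue and vessel walls, had FPKM of 1.53, 17.3 and 0.364 against 0.472, 1.08 and 1.40. Of the 8 other small leucine-rich proteoglycans, 4 were highest in that library and none passed an unadjusted p of 0.05. Prelp, which anchors matrix to basement membranes, had FPKM of 6.50, 73.4 and 36.2 against 7.43, 8.74 and 8.56, so it was high in the list B libraries alone. Biglycan (Bgn) had FPKM of 2.06, 18.9 and 1.68 against 1.57, 3.21 and 2.99. Fibromodulin (Fmod) had FPKM of 7.91, 53.3 and 14.4 against 32.3, 39.97 and 42.4, so its NMDA + SCF libraries lay between the control libraries.

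Of 24 other keratocyte and fibroblast genes with values, 10 were highest in NMDA + PBS replicate 2, against 18.8% of all genes. At an unadjusted p of 0.05, 1 was lower and 1 higher. NMDA + SCF lay above without overlap for 3 of the 24, against 7.62% of all genes, and below for 0, against 6.45%. Fbln1, encoding the matrix protein fibulin 1, lay with Ogn: its FPKM was 5.71, 29.2 and 12.1 in the NMDA + PBS libraries and 35.0, 40.5 and 52.5 in the NMDA + SCF libraries, with no overlap (log2 fold change 1.64, SE 0.51, limma p = 0.0135, adjusted p = 0.535, exact permutation p = 0.1). Cyp1b1, a cytochrome P450, was the lower gene, with FPKM of 0, 24.8 and 16.9 against 0, 0.0560 and 0, so it was high in the list B libraries alone.

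**Figure D3:**
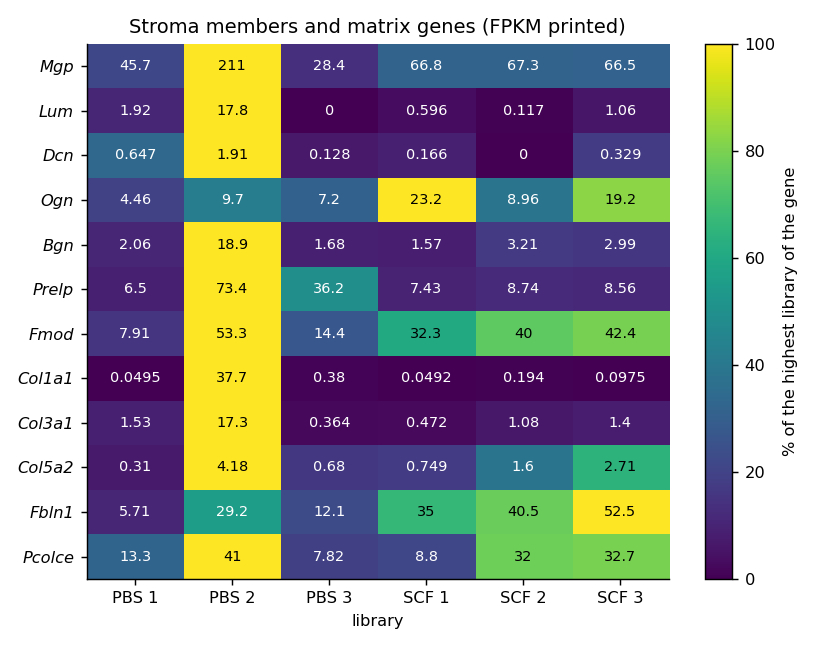
FPKM (printed in each cell) of the 4 stroma genes and 8 matrix genes, picked for display after their values were seen, in the 6 libraries (PBS, NMDA + PBS; SCF, NMDA + SCF). Colour gives the value as a percent of the highest library of that gene; NMDA + PBS replicate 2 is the highest for 10 of the 12 genes, and Ogn and Fbln1 are highest in NMDA + SCF libraries.

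**Figure D4:**
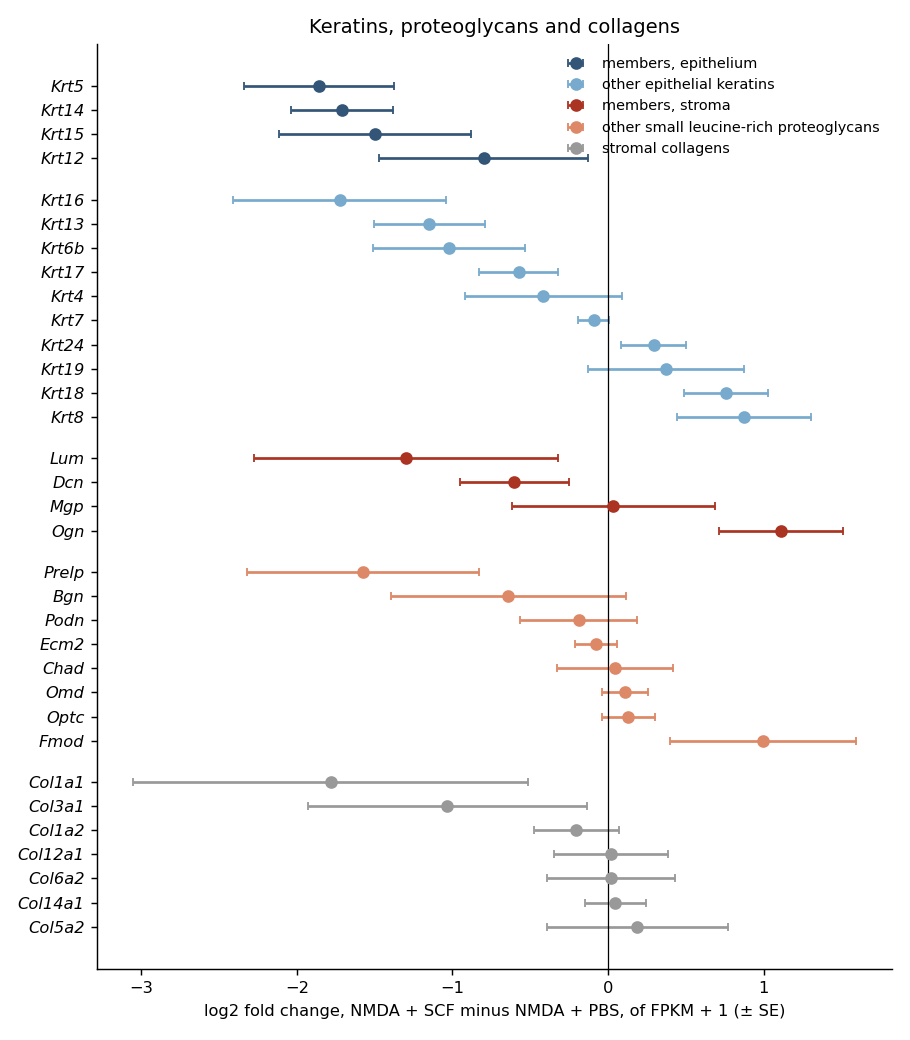
Log2 fold change of FPKM + 1, NMDA + SCF minus NMDA + PBS, with its SE (limma, 3 libraries a group), for every measured gene of 5 lists: the keratins and stroma genes, other epithelial keratins, other small leucine-rich proteoglycans and stromal collagens. The 4 keratins lie left of 0 with a median of -1.60, Krt8 and Krt18 lie right of it, and the stroma genes lie on both sides.

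Against the control library that was listed as the NMDA + SCF libraries were (list A), the keratin difference had the same direction for 3 of 4 genes. NMDA + PBS replicate 1 lay above all 3 NMDA + SCF libraries for 5 of the 8 genes (Krt5, Krt14, Krt15, Lum and Dcn), where it did so for 23.6% of all genes. For Krt12 it lay within the range of the NMDA + SCF libraries. It lay below all of them for Ogn (4.46 against 8.96 to 23.2 FPKM) and Mgp (45.7 against 66.5 to 67.3 FPKM). How often NMDA + PBS replicate 1 did so over all genes was not counted, so these genes have no share to be set against. With the transcript list as a term in the limma fit, which leaves NMDA + PBS replicate 1 alone to carry the comparison, the log2 fold change of Krt12 was 0.062 and turned direction. The log2 fold changes in that fit were -1.24 for Krt5, -1.18 for Krt14, -2.36 for Krt15 and 1.63 for Ogn.

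Genes of the lens, ciliary body and iris lay higher in the NMDA + SCF libraries. The summed FPKM of 16 lens genes was 27.1, 345 and 335 in the NMDA + PBS libraries and 5606, 674 and 12036 in the NMDA + SCF libraries. Of these lens genes 12 were higher at an unadjusted p of 0.05 and 0 lower, and 8 were at 0 in NMDA + PBS replicate 1. The summed FPKM of 6 ciliary body and iris genes was between 23.3 and 28.5 in NMDA + PBS and between 34.9 and 46.8 in NMDA + SCF, with none at 0. NMDA + SCF replicate 1 had the lowest keratin share of all libraries and a lens sum of 5606. NMDA + SCF replicate 3 had the highest lens sum, 12036, and the highest keratin sum of its group, 12.8 FPKM. A relation between the lens and keratin sums was not tested. The part of lens, ciliary body or iris tissue in the values of Ogn, Krt18 or the keratins was not tested.

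The genes with the pattern most like the summed keratins over the 6 libraries were Tmcc1 (Pearson r = 0.998 of log2(FPKM + 1)), 5730507A11Rik (0.996), Grb14 (0.992), Mir8091 (0.991) and Dixdc1 (0.986). Tmcc1 had FPKM of 6.14, 5.61 and 8.40 in the NMDA + PBS libraries and 2.99, 3.50 and 4.49 in the NMDA + SCF libraries. The genes most like the summed stroma genes were Mms19 (0.995), Ikzf4 (0.994), Gsap (0.994), Sbno2 (0.990) and Tlr13 (0.985). Among 13999 candidate genes, 172 reached an r of 0.9 with the keratin sum and 127 with the stroma sum, over 6 points that share library depth and transcript list, so these values are a description only.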

How the data were processed

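RNA-seq was made from retinas of 3 NMDA + PBS and 3 NMDA + SCF libraries with oligo (dT) enrichment and Illumina sequencing. The authors deposited FPKM per transcript for each library, and a table of read totals and of the percent of bases that reached quality 30. The labels name build mm9, but transcript positions matched GENCODE M21 (GRCm38), whose coordinates are printed here. Aligner and counter are not given in the sources used here. FPKM was summed per gene over Ensembl transcripts in both transcript lists. Merged transcripts without a gene name (8.85 to 11.4% of FPKM) were left out. Groups were compared with limma 3.58.1 (R 4.3.3; variance trend, condition only) on log2(FPKM + 1) over 25168 genes, with Benjamini-Hochberg adjustment. Folds on this scale understate the change of low genes. FPKM multiplied by transcript length gave whole fragments (within 0.05) for 98.4 to 98.5% of values. These fragments served for depth, intervals (Wilson, or exact for a ratio) and floors of 3 fragments, which cover counting error only. The limma script was tested on simulated data.

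The genes and the 17 lists were chosen with earlier results of these data known. Named are all 10 genes, the genes past an adjusted p of 0.05 or the up to 3 with the highest mean FPKM of each other list, genes that show which library is highest, and the 5 genes most alike in pattern (mean FPKM of at least 1). Anxa8, Krt13, Krt16, Krt17, A830036E02Rik, Cyp1b1, Nefh and Slc17a6 were named after their values were seen. Some results for single genes and sequences are left out of this account. The alternatives were a pseudocount of 0.1, a filter of 1 FPKM in 3 libraries, median-of-ratios and upper quartile scaling, voom on the fragments, all listed transcripts, a transcript list term, a replicate block and leaving out each library.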

Additional observations from a re-analysis of the deposited data

How the results depend on the processing

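The alternatives below bear on 8 genes in 3 against 3 libraries, where an exact permutation test cannot go below p = 0.1. The log2 fold changes of Krt5, Krt14, Krt15, Lum, Dcn and Ogn kept their direction under every alternative that gave a value, and a filter of 1 FPKM gave none for Dcn. Krt12 turned to 0.062 when the fit held the transcript list. Mgp turned to -0.089 with upper quartile scaling and -0.041 with median-of-ratios scaling, and ranged from -0.55 to 0.87 with 1 library left out. The number of genes called at the study's thresholds was 0 under all alternatives but one: without NMDA + PBS replicate 1 it was 192 (range 0 to 192 with 1 library left out). That fit compares list B libraries with list A libraries only, and whether the lists account for the count was not tested. It called 1 of the 8 genes at an adjusted p of 0.05 (Krt14, range 0 to 1). With all libraries 4 of the 8 passed an unadjusted limma p of 0.05 (2 to 5 under the alternatives). The number of all genes passing that p also differed between the fits. Without NMDA + PBS replicate 1, 2 of the 8 passed, and of 24920 genes 2376 were lower and 1955 higher. Without NMDA + PBS replicate 2, 5 of the 8 passed, and of 24765 genes 915 were lower and 1061 higher. The median log2 fold change of the 8 genes was -1.05, and moved to -1.54 with a pseudocount of 0.1, to -1.52 with voom, and over -1.40 to -0.61 with 1 library left out, the upper end without NMDA + PBS replicate 2; the cause was not tested. The median over the 4 keratins lay between -2.10 and -1.21 in all alternatives. Of all genes at an unadjusted p of 0.05, 46.8% were higher in NMDA + SCF, against 29.2% with upper quartile scaling, 34.0% with median-of-ratios scaling and 58.9% with the filter. Genes at an adjusted p of 0.05 numbered 0 with all libraries (1236 lower and 1089 higher at an unadjusted p of 0.05, limma), 2 with voom, 53 with the transcript list term and 909 without NMDA + PBS replicate 1. Replicate numbers did not pair the samples: same-numbered libraries had deviation correlations of -0.04, -0.04 and -0.06, and 0 samples were closest to their own number. With the replicate block, 0 genes were called, and the unadjusted limma p was 0.00120 for Krt5, 0.0423 for Krt12, 0.00462 for Krt14, 0.0410 for Krt15 and 0.0577 for Ogn.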

Other observations

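Lists for tissues next to the cornea and the retina gave these values. Of 6 corneal endothelium genes, 1 had an unadjusted limma p up to 0.05 and lower levels in NMDA + SCF: Tjp1, a tight junction protein of many cell types, had FPKM of 7.54, 19.96 and 17.9 in the NMDA + PBS libraries and 5.43, 3.78 and 3.31 in the NMDA + SCF libraries. Its fragments numbered 19, 374 and 338 against 13, 9 and 8, so most of them came from the list B libraries. Col8a2, a collagen of Descemet's membrane, had FPKM of 11.6, 16.8 and 4.94 against 12.8, 16.6 and 19.4, with overlap. Of 12 genes of the retinal pigment epithelium, none passed that p in either direction. None of 7 vascular endothelium genes did so either, and the summed FPKM of that list was 108 to 134 in NMDA + PBS and 105 to 138 in NMDA + SCF. Of 7 pericyte and smooth muscle genes 1 was lower: Acta2, smooth muscle actin, had FPKM of 0.660, 45.3 and 22.0 against 0.492, 0 and 0.812, so it was high in the list B libraries. None of the 3 measured skeletal muscle genes passed. Of 10 rod genes 0 were lower and 2 higher. Of 7 Müller glia genes 1 was lower (Dkk3) and of 8 retinal ganglion cell genes 2 were lower (Nefh and Slc17a6), and all 3 had their high values in the list B libraries.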
